A study of Saccharomyces cerevisiae with 6 samples.

Results

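Strains of budding yeast with a mutated PI3K domain in Tra1 were taken here as 1 group of mutants and compared with the strain that carries TRA1. The group holds all 6 of the 6 arrays, which came from 3 alleles with 2 arrays each, and each array set 1 mutant strain beside the reference strain. For every gene the mean of the 6 log2 (mutant / reference) values was tested against 0. The question is thus which mRNAs changed in common, including those that are not called in any single allele. Each strain, the reference included, had its chromosomal TRA1 disrupted by the insertion TRA1::Tn10LUK and depended on a myc-tagged copy of TRA1 on YCplac111, a centromeric plasmid with a LEU2 marker. The mutant strains carried myc-tra1_P3408A, myc-tra1_SRR3413 or myc-tra1_S3463A, alleles whose names give the residues changed, and the reference carried myc-TRA1_SB. Growth conditions and the number of clones behind each strain are not given in the sources used here.

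Tra1 is a very large protein shared by SAGA and NuA4, the main histone acetyltransferase complexes that DNA-bound activators recruit to yeast promoters. Its C-terminal region resembles the kinase domain of the PI3K-related family, to which the Tor, Mec1 and Tel1 kinases belong, but it lacks the residues needed for kinase activity. SAGA is best known for its part in inducible genes such as those of phosphate starvation, amino acid starvation and stress, and NuA4 for acetylation of histone H4, also at highly expressed genes.

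The arrays agreed in which genes were high and low, and part of the spread went with dye orientation or slide, which are partly confounded. The mutant was labelled with Cy5 on array 1 of each allele and with Cy3 on array 2, so both orientations entered the pooled mean equally. Across genes, the ratios correlated at 0.754 to 0.955 in the 6 pairs of arrays with the same orientation and at 0.602 to 0.816 in the 9 pairs with opposite orientation. Array 2 of tra1_P3408A, on slide 2, was in both the lowest pair of the same orientation (0.754) and the highest pair of opposite orientation (0.816). The arrays lay on 3 slides, and slide 3 held array 2 of tra1_SRR3413 and of tra1_S3463A, both with the mutant in Cy3. Both channels were well above background for 99.2% to 99.6% of gene spots per array. All ratios are centred within an array, so a change is relative to the typical gene. The 6 ratios share 1 reference strain: a trait of the reference culture and a trait common to the mutants cannot be told apart, and p-values measure only the spread between these arrays.

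TRA1 itself was higher in the mutants. Its log2 ratio was 0.83 and 1.21 on the arrays of tra1_P3408A, 0.94 and 1.93 on those of tra1_SRR3413, and 0.73 and 1.75 on those of tra1_S3463A. No array came near 0, and the highest values were those of the arrays on slide 3. The mean was 1.23 ± 0.50 (SD, n = 6), a 2.35-fold rise (limma, adjusted p = 0.000395), with slide means of 0.89, 0.97 and 1.84. The plasmid marker LEU2 did not move with it, at -0.26 ± 0.13 (adjusted p = 0.00886, lost at 0.0795 when slide was a random block), and URA3 stood at -0.09 ± 0.16 (adjusted p = 0.299). The level of the Tra1 protein was not measured.

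Of 6119 genes tested, 3160 (51.6%) differed from the reference at an adjusted p under 0.05, with 1606 (26.2%) lower and 1554 (25.4%) higher. These shares are the background against which every count of a gene group below is to be read. Most of the changes were small. Among the called genes the median absolute log2 change was 0.42, the smallest 0.14, and 2275 (72.0%) differed by less than 1.5-fold. Large changes ran one way: 213 genes (3.48%) were lower by 2-fold or more and 41 (0.670%) higher, while 29 were lower and 0 higher by 4-fold or more. The 6 arrays had 1 sign for 2993 genes (48.9%), among them 2808 of the 3160 called. The means of the 3 slides had 1 sign for 3851 genes, among them 3109 of the 3160 called. Calls and signs come from the same arrays, so these counts are not independent support for the calls. With the slide as a random block the counts were 1175 lower and 1115 higher, and with the array number, which marks the dye orientation, as a block they were 2003 and 1975.

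**Figure D1:**
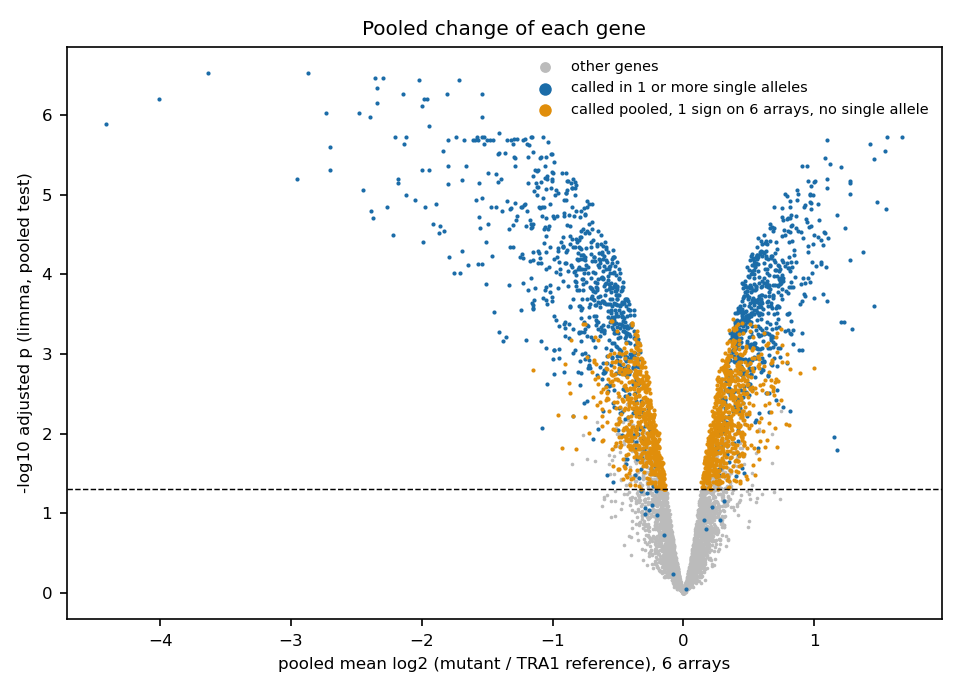
Pooled mean log2 (mutant / TRA1 reference) of each of 6119 genes on the x axis against -log10 of the limma adjusted p on the y axis, with the threshold of 0.05 as a dashed line. Blue genes were called in at least 1 single allele, orange genes were called with 1 sign on 6 arrays in the pooled test and in no single allele, and the left arm reaches much farther from 0 than the right arm.

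The deepest falls were in nucleotide and amino acid synthesis, phosphate and redox genes. IMD2, which encodes an IMP dehydrogenase at the entry to GTP synthesis, lay between -4.50 and -3.37 on the 6 arrays with a median of -3.99. Its mean was -4.01 ± 0.42 (16.1-fold lower, adjusted p = 6.35e-07), and the slide means were -3.99, -3.58 and -4.45. YAR075W, a reading frame nearly identical to part of the IMD genes whose probe cannot be taken as specific, had a mean of -4.41 ± 0.55. ADE17, which carries out the last steps of purine synthesis, lay between -4.01 and -3.28 (median -3.62, mean -3.63 ± 0.26, 12.4-fold lower, adjusted p = 2.96e-07). SPL2, a regulator of phosphate transport, was the most even of these genes, between -3.06 and -2.55 with a median of -2.92 (mean -2.87 ± 0.18, 7.32-fold lower, adjusted p = 2.96e-07). Each of the 4 was far below 0 on every array. The rest of the 15 largest falls, between 5.08-fold and 7.75-fold, were AAD4, ADE1, HIS4, HAB1, BDH2, PHO84, TSA2, YMR090W, APE1, SNZ1 and ZTA1.

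The largest rises were smaller. SCW10, a cell wall protein of the glucanase family, lay between 1.44 and 1.93 (median 1.71, mean 1.67 ± 0.19, 3.19-fold higher, adjusted p = 1.87e-06). PDR12, an exporter of weak organic acids, followed between 1.32 and 1.83 (median 1.55, mean 1.55 ± 0.17, 2.94-fold, adjusted p = 1.87e-06). PCL1, a cyclin of late G1, ranged from 1.25 to 2.04 and RNR1, the large subunit of ribonucleotide reductase, from 1.27 to 1.83. Every array was above 1 for these 4 genes. The remaining 11 of the 15 largest rises were SVS1, FET3, YHR033W, MNN1, PIC2, TMA10, ATF2, ATG39, RRN3, DBP2 and YLR311C, between 2.36-fold and 2.79-fold. The widest of these were YHR033W (0.74 to 2.26, SD 0.55) and TMA10 (0.52 to 1.96, SD 0.55, saturated on 1 array).

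**Figure D2:**
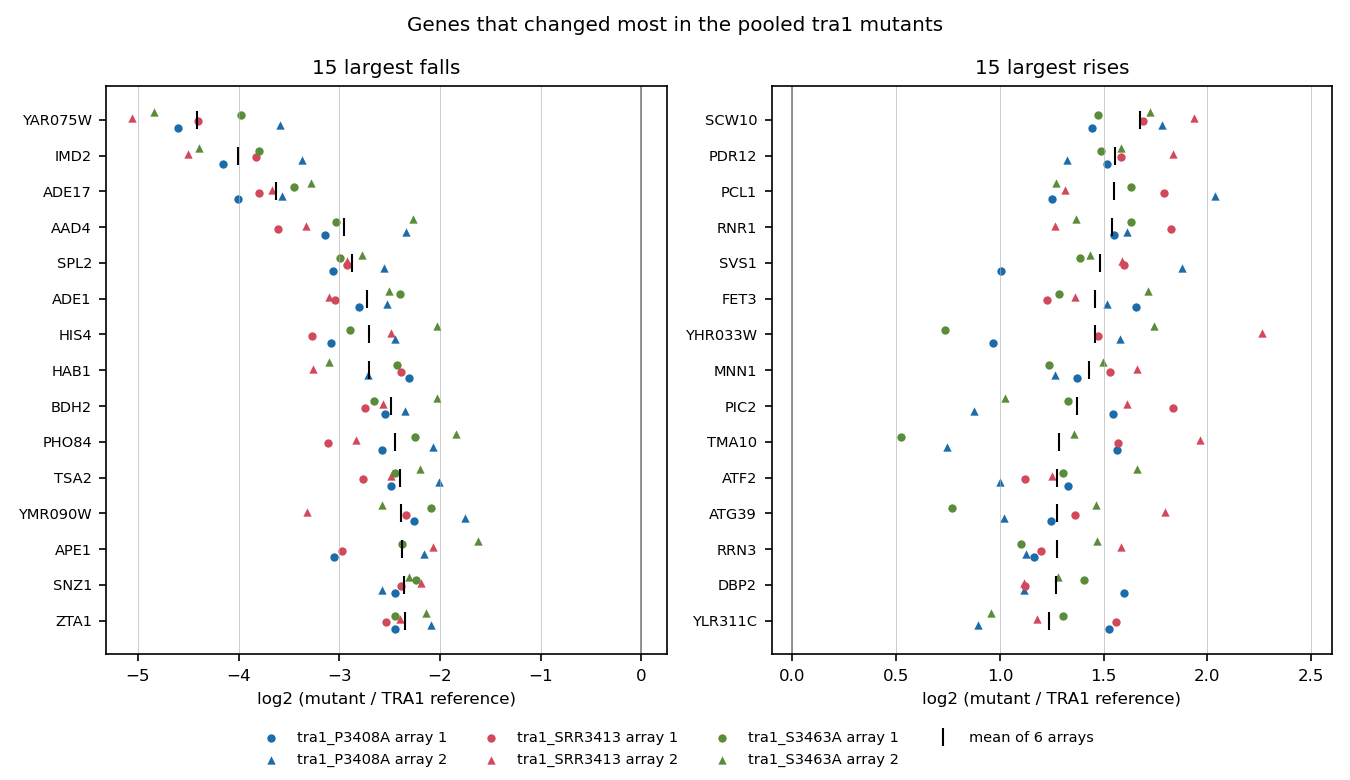
Log2 (mutant / TRA1 reference) on each of the 6 arrays for the 15 genes that fell most (left) and the 15 that rose most (right); colours mark the allele, circles array 1 and triangles array 2, black ticks the mean of 6 arrays. The falls reach a mean of -4.41 and the rises a mean of 1.67. No array crosses 0 for any of the 30 genes, which were chosen among genes with 1 sign on 6 arrays.

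GTP and purine synthesis had the lowest medians of the gene groups. Of 9 tested genes of the de novo purine pathway 8 fell and none rose, all 8 by 2-fold or more. The median of the group was -1.54, against -0.00 over all genes, and the array medians lay between -1.59 and -1.37. Other falls included ADE1 (-2.73 ± 0.30), ADE57 (-2.34 ± 0.22), ADE13 (-1.54 ± 0.12) and ADE8 (-1.41 ± 0.18), genes for enzymes on the route to IMP. Of the 5 GTP synthesis genes 4 fell: IMD2, its paralogs IMD3 (-1.95 ± 0.32) and IMD4 (-0.96 ± 0.30), and the guanylate kinase gene GUK1 (-0.48 ± 0.31). GUA1, the GMP synthase gene, was the only one higher (0.26 ± 0.12, adjusted p = 0.0075), and median centring of the arrays took it to 0.15 (adjusted p = 0.108). The IMD genes are similar in sequence, and the share of one gene's signal on another's probe was not tested.

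Folate-linked and amino acid synthesis genes were lowered in part. Among 12 genes of glycine and one-carbon metabolism 6 fell and 2 rose, with the serine hydroxymethyltransferase SHM2 at -2.14 ± 0.30, the dehydrogenase MTD1 at -1.86 ± 0.44 and the glycine cleavage genes GCV1, GCV2 and GCV3 at -1.80 ± 0.32, -2.05 ± 0.42 and -1.57 ± 0.47 (GCV3 saturated on 3 arrays). Of 9 lysine synthesis genes 7 fell (median -0.78), among them the saccharopine dehydrogenase LYS1 (-1.995 ± 0.18) and the homocitrate synthase LYS20 (-2.18 ± 0.41). LYS21, the other homocitrate synthase, fell by 1.37-fold (-0.45 ± 0.12). In the histidine pathway HIS4 (-2.70 ± 0.46), HIS5 (-1.66 ± 0.25) and HIS1 (-0.61 ± 0.40) fell, and the other 3 of 6 tested genes did not pass. Of 13 branched-chain genes 5 fell and 2 rose, among them the isopropylmalate isomerase LEU1 (-1.84 ± 0.26), the synthase LEU4 (-0.63 ± 0.09) and the cytosolic aminotransferase BAT2 (-1.33 ± 0.31) downward and the permease BAP2 (0.82 ± 0.34) upward. Vitamin B6 genes fell in 7 of 8 tested members, most deeply SNZ1 (-2.36 ± 0.14) and SNO1 (-2.02 ± 0.12). The SNZ2, SNO2 and SNO3 genes stood at -0.62, -0.65 and -0.61, and their near-identical copies cannot be told apart on the array.

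Phosphate regulon genes, induced through Pho4 when phosphate is scarce, fell in 13 of 16 members and rose in none (median -0.65, array medians -0.76 to -0.50). PHO84, the high-affinity transporter, lay between -3.11 and -1.84 (median -2.41, mean -2.45 ± 0.48). PHO5, the secreted acid phosphatase whose promoter is a classic target of SAGA, lay between -2.62 and -1.52 (median -2.30, mean -2.18 ± 0.39, 4.52-fold lower, adjusted p = 6.42e-06). The sodium-coupled transporter gene PHO89 (-0.85 ± 0.13) and PHM6 (-0.89 ± 0.09) had smaller but very even falls. With the slide as a random block the count of falls was 8.

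Redox and detoxification genes fell as a group. Of 26 genes of oxidative stress defence 19 fell and none rose (median -0.78, array medians -0.90 to -0.50). TSA2, a peroxiredoxin, lay between -2.76 and -2.01 (mean -2.40 ± 0.26), CCS1, the copper chaperone of superoxide dismutase, between -2.57 and -1.47 (-1.98 ± 0.42), and the glutaredoxin gene GRX2 between -1.96 and -1.23 (-1.47 ± 0.30). The mitochondrial superoxide dismutase gene SOD2 was lowered by 1.86-fold with little spread (-0.90 ± 0.07). Of 17 genes for alcohol and aldehyde enzymes 12 fell and 1 rose, with BDH2, a putative butanediol dehydrogenase, at -2.48 ± 0.26, and the alcohol dehydrogenases ADH5, ADH6 and ADH3 at -1.71 ± 0.07, -1.57 ± 0.18 and -0.98 ± 0.08. Aryl-alcohol dehydrogenase genes were split: AAD4 (-2.95 ± 0.54), AAD6 (-1.71 ± 0.54) and AAD10 (-1.39 ± 0.29) fell, while the other 3 of 6 did not pass, and the family's copies share sequence.

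Chaperone and proteasome genes were both lower, by different sizes. Of 29 cytosolic and mitochondrial chaperone genes 17 fell and none rose (median -0.44). HSP82, an Hsp90, lay between -1.71 and -0.90 (-1.44 ± 0.29), the inducible Hsp70 gene SSA4 between -2.34 and -1.28 (-1.83 ± 0.45), and the Hsp110 gene SSE1 between -1.09 and -0.80 (-0.99 ± 0.11). Proteasome genes fell in 27 of 37 members and rose in none, with a median of only -0.28 and array medians between -0.39 and -0.25. The α-ring gene PRE10 fell by 2.07-fold (-1.05 ± 0.30), the only member past 2-fold, and the ATPase genes RPT5 (-0.46 ± 0.07) and RPT3 (-0.53 ± 0.14) by 1.37-fold and 1.44-fold. Of the 27 proteasome genes that fell, 17 had 1 sign on 6 arrays and were called in no single allele, or 4 of 29 with the array number as a block. Over all genes that fell this held for 667 of 1606. With the block it held for 270 genes in both directions, beside 2003 called lower and 1975 called higher. The count of falls was 20 with the slide as a random block.

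Stress and reserve carbohydrate genes were also lower. Of 33 general stress genes 20 fell and 5 rose (median -0.66), and the count of rises was 2 with the slide as a random block. The falls included the glutathione transferase ECM4 (4-fold lower, SD 0.33), the phosphogluconolactonase SOL4 (-1.61 ± 0.19) and the proteinase A inhibitor PAI3 (-1.27 ± 0.11). The highest of the 5 rises was TMA10 (1.29 ± 0.55), which is also among the largest rises of all genes. The group's array medians ran from -0.83 to -0.19, with the weakest on array 2 of tra1_SRR3413. Trehalose and glycogen genes fell in 13 of 20 members and rose in 1 (median -0.39), with glycogen synthase GSY1 at -1.14 ± 0.41, glycogenin GLG1 at -0.86 ± 0.08 and the trehalose synthase subunit TPS3 at -0.78 ± 0.29. Vacuole and autophagy genes fell in 15 of 31 and rose in 3. The aminopeptidase APE1 (-2.37 ± 0.55) and the autophagy receptor ATG34 (-1.52 ± 0.19) fell, and the receptor ATG39 of nuclear and ER autophagy rose (1.28 ± 0.36).

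Mitochondrial genes did not move as a block. Respiratory chain and ATP synthase genes rose in 31 of 41 members and fell in 4 (median 0.52, array medians 0.34 to 0.60). ATP7 and ATP17, subunits of the ATP synthase, rose by 1.17 ± 0.23 and 1.10 ± 0.26, and QCR6 of complex III by 0.78 ± 0.14 (saturated on 2 arrays). In the opposite direction NDE2, an external NADH dehydrogenase, fell to -1.58 ± 0.31 and COX5B, the hypoxic form of a cytochrome oxidase subunit, to -1.002 ± 0.11. A list of TCA cycle and related genes fell in 9 of 18 members and rose in none (median -0.20). The falls included the mitochondrial citrate synthase CIT3 (-1.16 ± 0.25). The deepest was CIT2 (-1.47 ± 0.41), whose citrate synthase is peroxisomal and not part of the mitochondrial cycle. The mitochondrial phosphate carriers MIR1 (1.20 ± 0.16) and PIC2 (1.37 ± 0.37) rose, whereas the carnitine carrier CRC1 (-0.87 ± 0.19) and OAC1 (-0.998 ± 0.19) fell. Among 26 glucose-repressed genes 13 fell and 3 rose, with CYB2, a lactate dehydrogenase, at -1.58 ± 0.16 and ADH2 between -1.75 and -1.35 (mean -1.54 ± 0.16, 2.91-fold lower, adjusted p = 1.87e-06), and with the malate dehydrogenase MDH2 rising (0.82 ± 0.14).

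Ribosome biogenesis genes gave the largest count of rises among the gene groups. Of 85 tested factors 66 rose and none fell, although the median was only 0.37, with array medians between 0.32 and 0.49. DBP9, a helicase of large subunit assembly, lay between 0.71 and 0.87 (median 0.76, mean 0.78 ± 0.07, adjusted p = 9.7e-06), and RRP12, a factor of ribosome export, between 0.61 and 0.76 (0.69 ± 0.06). The helicase gene DBP2 was the only member past 2-fold (1.27 ± 0.20). For 26 of the 66, all with 1 sign on 6 arrays, no single allele gave a call, and with the array number as a block this held for 4 of 70. Over all genes that rose it held for 738 of 1554. With the block it held for 270 genes in both directions, beside 2003 called lower and 1975 called higher. RNA polymerase I genes rose in 8 of 17 members and fell in 1, with the initiation factor RRN3 at 1.27 ± 0.20 and the subunit RPA135 at 1.00 ± 0.13. RNA polymerase III genes rose in 8 of 20 and fell in none, among them RPC82 (0.80 ± 0.12) and RPC53 (0.57 ± 0.09).

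Genes of the ribosome itself were less uniform. Of 134 cytosolic ribosomal protein genes 46 rose (34.3%, against 25.4% of all genes) and 5 fell, with a median of 0.16. Their median ran from -0.28 on array 2 of tra1_SRR3413 to 0.47, so the group was not above 0 on every array, and 29 rose with median centring or without the tra1_P3408A arrays. RPL18B (0.94 ± 0.17), RPS14B (0.95 ± 0.18) and RPS27A (0.80 ± 0.14) were among those that rose, with the reservation that most of these genes have a near-identical paralog. Mitochondrial ribosomal protein genes rose in 22 of 67 and fell in 7, and 13 rose with the slide as a random block or without tra1_P3408A and 14 without tra1_S3463A. Translation factors rose in 11 of 38 and fell in 1 (median 0.10), near the background share. TIF35, a subunit of eIF3, was the steadiest of them, between 0.28 and 0.40 (mean 0.35 ± 0.05, 1.27-fold, adjusted p = 0.0005). Without tra1_S3463A 5 translation factors rose, with median centring 7, and with the allele as a random block 17.

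Cell cycle genes of G1 and S phase rose. Of 26 G1 and S phase genes 21 rose and none fell (median 0.62, array medians 0.47 to 0.67). CLN1, a G1 cyclin, lay between 0.74 and 1.44 (median 1.06, mean 1.05 ± 0.24), and GIC1, an effector of Cdc42 at bud emergence, between 0.70 and 0.91 (mean 0.79 ± 0.08). Histone genes rose in 9 of 11 members and fell in none (median 0.60), with HTA1 at 0.82 ± 0.31 and HHF1 at 0.73 ± 0.20, although paired copies of a histone gene share most of their sequence. Replication and cohesion genes rose in 31 of 42 and fell in none (median 0.35), among them the origin licensing factor CDC6 (0.70 ± 0.14), the cohesin subunit MCD1 (0.75 ± 0.22) and the fork protein TOF1 (0.55 ± 0.09). Genes of G2 and M phase rose in 10 of 26 and fell in 2, including the polo kinase CDC5 (0.67 ± 0.22) and the cyclins CLB3 (0.58 ± 0.19) and CLB1 (0.78 ± 0.32). These are bulk cultures, in which more cells in a phase and more mRNA per cell in that phase cannot be told apart.

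Cell surface genes rose with them. Of 49 cell wall genes 24 rose and 2 fell (median 0.27), and 4 rose by 2-fold or more: SCW10, the Golgi mannosyltransferase MNN1 (1.43 ± 0.17), SVS1 (1.48 ± 0.29) and TOS1 (1.10 ± 0.17). Genes of iron uptake and use rose in 14 of 26 and fell in 5. The ferroxidase FET3 lay between 1.23 and 1.71 (1.46 ± 0.20), its permease partner FTR1 between 0.74 and 1.18 (0.98 ± 0.17), and the siderophore transporter SIT1 between 0.68 and 1.33 (1.00 ± 0.22). ENB1, the transporter of enterobactin (-1.10 ± 0.20), and HMX1, the heme oxygenase (-0.93 ± 0.09), fell, so the group was divided. The count of iron genes that rose was 9 with the slide as a random block or without tra1_P3408A, and 7 without tra1_S3463A.

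**Figure D3:**
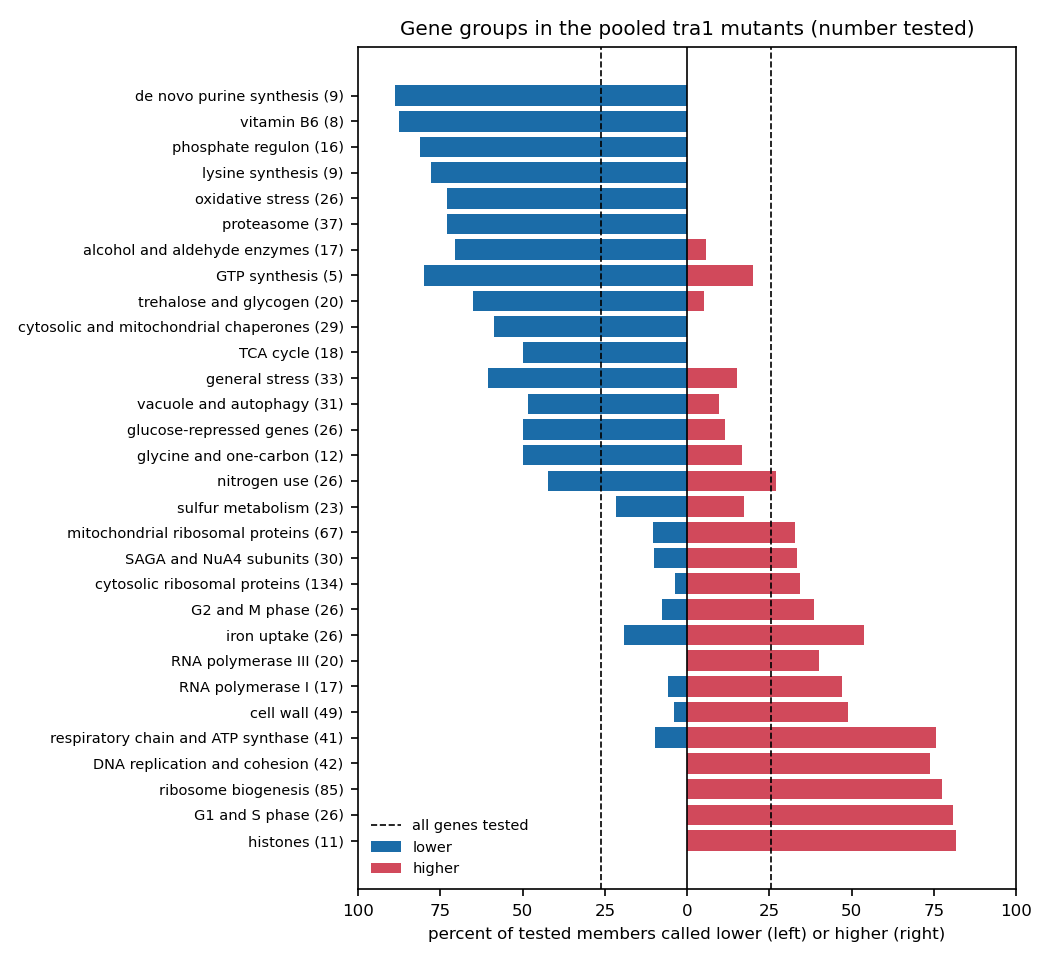
Percent of the tested members of 30 gene groups that were called lower (blue, left) or higher (red, right) in the pooled test, with the share over all 6119 genes as dashed lines (26.2% lower and 25.4% higher). Purine, vitamin B6 and phosphate genes stand at the lower end, and ribosome biogenesis, G1 and S phase and histone genes at the higher end.

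**Figure D4:**
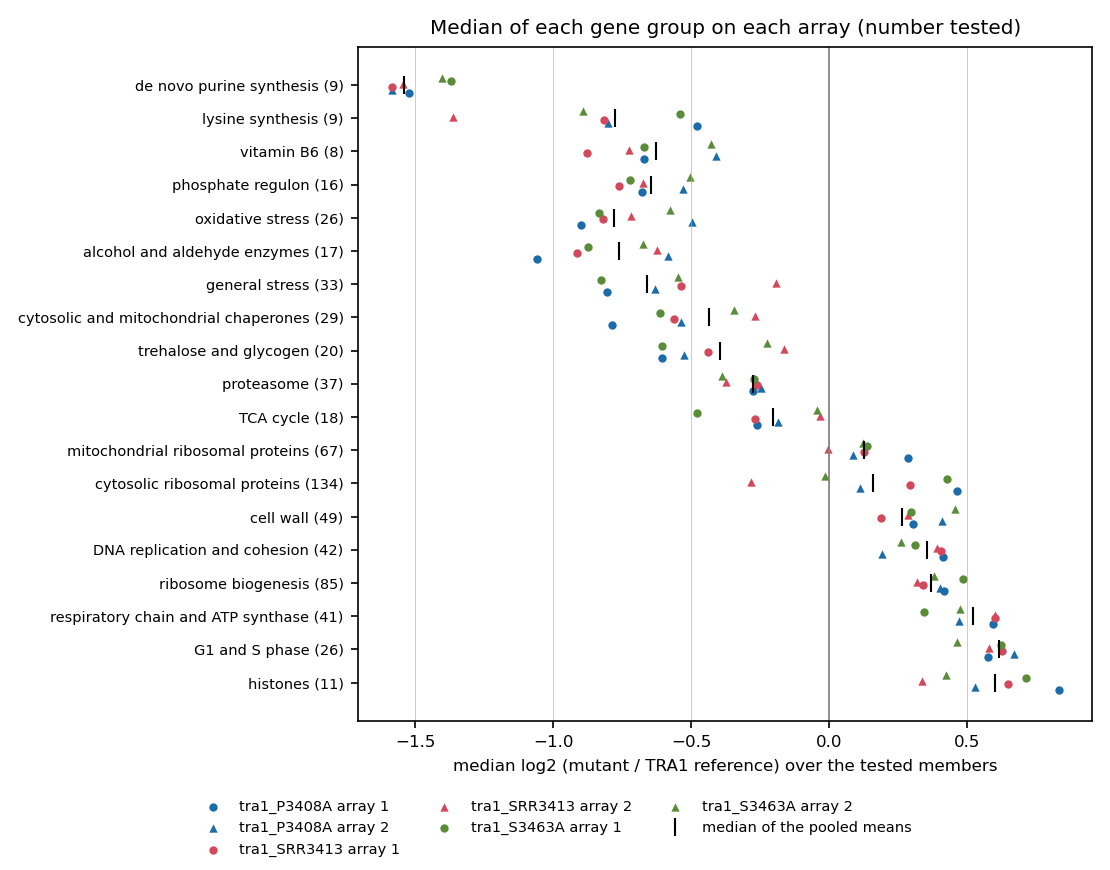
Median log2 (mutant / TRA1 reference) of the tested members of 19 gene groups on each array, with alleles in colour, array 1 as circles, array 2 as triangles and the median of the pooled means as black ticks. Proteasome and ribosome biogenesis medians lie close together on the 6 arrays, while those of cytosolic ribosomal proteins run from -0.28 to 0.47.

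The subunits of the complexes that hold Tra1 changed little. Of 30 SAGA and NuA4 genes other than TRA1, 10 rose and 3 fell (33.3% and 10%, median 0.11), and none changed by 2-fold. The count of rises was 6 with the slide as a random block or without tra1_SRR3413. HFI1, a SAGA core subunit also called ADA1, lay between 0.25 and 0.72 (mean 0.51 ± 0.17, 1.42-fold, adjusted p = 0.000517) and SPT8, a subunit that contacts TBP, between 0.14 and 0.43 (0.28 ± 0.12), and neither was called in a single allele. EAF6, a small subunit of NuA4, fell evenly, between -0.57 and -0.45 (-0.51 ± 0.05, adjusted p = 6.93e-05). A further group held PI3K-related kinases, the TTT complex and Hsp90, which works with TTT to help these proteins mature. In it 5 of 14 rose and 2 fell. TTI1 and TTI2, the TTT subunits, rose by 0.72 ± 0.17 and 0.48 ± 0.18 and TOR2 by 0.50 ± 0.08. The 2 falls were those of the Hsp90 genes HSP82 and HSC82 (-0.77 ± 0.25).

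Pooling brought out many genes that no allele showed alone. There were 1405 genes that passed the pooled test with 1 sign on 6 arrays and passed in none of the 3 alleles, 667 lower (10.9% of genes tested) and 738 higher (12.1%). Their median absolute change was 0.32, or 1.24-fold, with quartiles at 0.24 and 0.42 and a range from 0.14 to 1.15. In single alleles 776 (12.7%), 1289 (21.1%) and 922 (15.1%) genes passed in tra1_P3408A, tra1_SRR3413 and tra1_S3463A, and 1444 passed in at least 1. Of these 1428 also passed in the pooled test. The 642 genes that passed in all 3 alleles, 410 lower and 232 higher, had a median absolute change of 0.85. The size of the set of 1405 depends on how the dye orientation is treated: with the array number as a block it was 270, and with the slide as a random block it was 880. A gene outside an allele's list is not shown to be unchanged in that allele.

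The 10 falls of this set with the smallest p included genes of protein turnover, redox and membrane traffic. PRE6, a proteasome α subunit, lay between -0.79 and -0.34 (median -0.53, mean -0.55 ± 0.18, 1.46-fold lower, adjusted p = 0.000384). Its allele means were -0.53, -0.52 and -0.59, each short of the threshold (adjusted p = 0.0702, 0.0559 and 0.0504). YUH1, a ubiquitin hydrolase, had almost the same values, between -0.80 and -0.37 (mean -0.55 ± 0.18). In both genes the arrays on slide 3 were lowest. The order also followed the dyes, with all 3 arrays that carried the mutant in Cy5 above the others. The glutaredoxin gene GRX1 (-1.12 to -0.43, mean -0.77 ± 0.30) and the polyamine oxidase gene FMS1 (-1.09 to -0.38, mean -0.75 ± 0.29) had the opposite order, with the Cy5 arrays below. YPT52, an endosomal GTPase gene, was 1.42-fold lower with slide means of -0.38, -0.46 and -0.69. The other 5 of the 10 were the RNA-binding protein SLF1, LDB17, the vacuolar magnesium transporter MNR2, the prenyltransferase SRT1 and the ER membrane protein YET1, with an SD of 0.059 to 0.084. In 9 of the 10 genes the values of the 2 dye orientations did not overlap.

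The 10 rises of the same set with the smallest p included factors of RNA and the ribosome. NPY1, an NADH diphosphatase of the peroxisome, lay between 0.29 and 0.43 (median 0.40, mean 0.38 ± 0.06, 1.3-fold higher, adjusted p = 0.00036). GRC3, a polynucleotide kinase of rRNA processing, had a mean of 0.45 ± 0.12, RNT1, the yeast RNase III that cuts pre-rRNA, 0.39 ± 0.09, and MRPL11, a mitochondrial ribosomal protein, 0.42 ± 0.10. IKI3, the largest Elongator subunit, stood at 0.40 ± 0.09, and TPK3, a catalytic subunit of protein kinase A, at 0.38 ± 0.08. All 6 arrays were above 0 for each, as the rule for the set required. EFM4, a methyltransferase of elongation factor 1A, had the largest of these rises (0.37 to 1.05, mean 0.75 ± 0.30), with the arrays that carried the mutant in Cy5 above the rest. The orientations did not overlap in 6 of these 10 genes, with the Cy5 arrays above in GRC3, MRPL11, IKI3, EFM4 and LPX1 and below in FAP1. Over the set of 1405 they did not overlap in 733 genes (52.2%), and over all genes tested in 2952 (48.2%). FAP1 (0.51 ± 0.16), the α-factor gene MF(ALPHA)1 (0.55 ± 0.19) and the peroxisomal lipase LPX1 (0.40 ± 0.10) completed the 10.

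**Figure D5:**
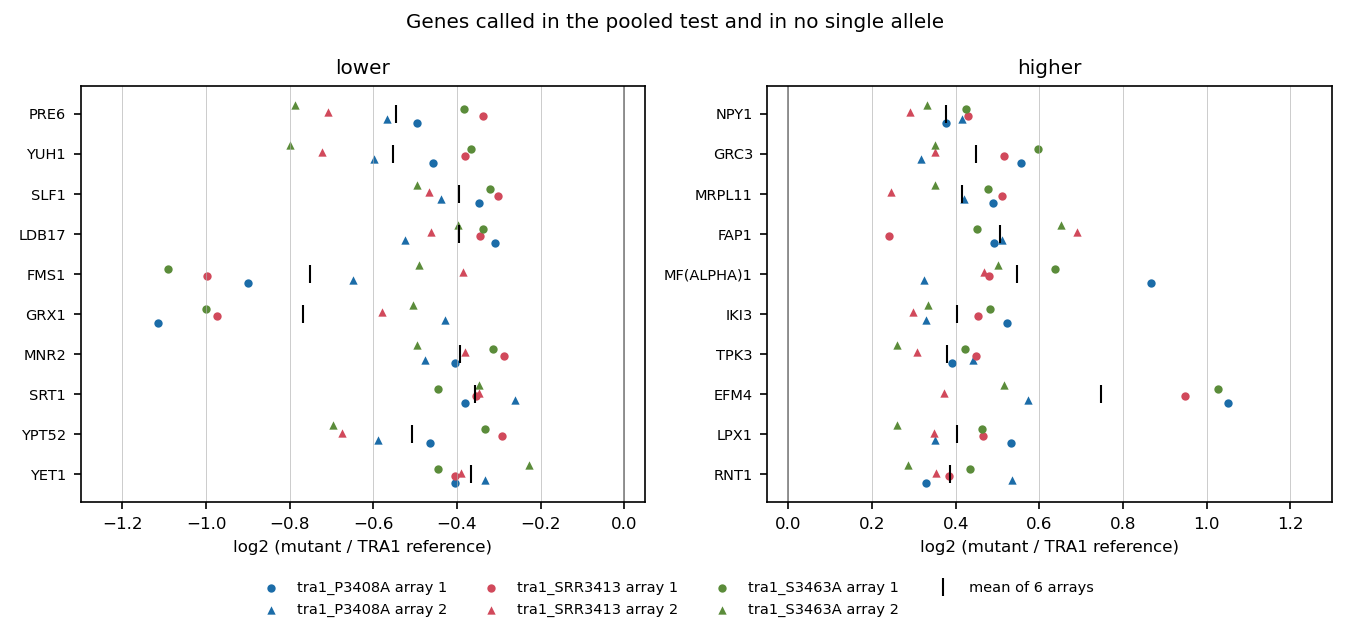
Log2 (mutant / TRA1 reference) on each of the 6 arrays for the 10 lower and the 10 higher genes with the smallest p among those called in the pooled test and in no single allele; colours mark the allele, circles array 1, triangles array 2 and black ticks the mean. No array crosses 0, as the rule for the set required, and the circles and triangles separate in 15 of the 20 genes.

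The set of 1405 held 47.5% of all genes called higher and 41.5% of all genes called lower, and gene groups lay on both sides of these shares. Of the genes that rose, the set held 10 of 11 translation factors, 18 of 22 mitochondrial ribosomal protein genes, 7 of 10 SAGA and NuA4 genes, 16 of 46 cytosolic ribosomal protein genes, 11 of 31 respiratory chain genes and 11 of 31 replication genes. It held 0 of the 8 purine, 7 lysine and 3 histidine genes that fell. These counts depend on the treatment of the dyes. Over all genes, a block for the array number left 270 in the set, beside 2003 called lower and 1975 called higher. With the array number as a block the set held 4 of 16 translation factors, 6 of 32 mitochondrial ribosomal protein genes, 2 of 12 SAGA and NuA4 genes, 0 of 63 cytosolic ribosomal protein genes, 1 of 32 respiratory chain genes and 3 of 34 replication genes that rose. The difference between groups was not tested.

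No gene was shown to differ among the 3 alleles. The moderated F test in limma called 0 of 6119 genes, and 61 (1.00%) had an unadjusted p under 0.05. With the array number as a block the test called 0 again (411 at an unadjusted p under 0.05, or 6.72%), and likewise for the slide as a fixed block (646, or 10.6%). If no gene differed and arrays varied independently, about 5% of genes would pass the unadjusted threshold. The main fit lay below that share and the blocked fits above it, and the reason was not tested. With 3 residual degrees of freedom in the main fit, and fewer in the blocked fits, the lack of calls does not show that the alleles act alike. The 6 genes with the smallest F-test p were GCY1, AQR1, AQY1, YBR085C-A, DSE3 and GCV2 (unadjusted p from 0.00201 to 0.00586, adjusted p of 1.00 for each). In 5 of them tra1_SRR3413 stood farthest from the other alleles, for example GCY1, a glycerol dehydrogenase gene, with allele means of -0.99, -0.16 and -1.06 in tra1_P3408A, tra1_SRR3413 and tra1_S3463A. AQY1, an aquaporin gene, had means of -0.61, -1.54 and -0.38. In GCV2 all alleles were low, at -2.19, -2.42 and -1.55, and tra1_S3463A was the least so.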

How the data were processed

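RNA was extracted on silica matrices, linearly amplified and labelled by a service company, per the labels' protocols. Per the file headers, Feature Extraction 7.5.1 (Agilent) gave the authors the intensity values of each spot: uncorrected means and backgrounds, and processed signals that were background-subtracted and dye-normalized by lowess. The deposited log10 ratio is Cy5 over Cy3, per the file headers. The deposited series table equalled, within 1e-04, the log10 ratio of the dye-normalized signals turned to mutant over reference. Spot flags are deposited as 0 or 1.

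In limma 3.58.1 (R 4.3.3, data.table version 1.17.8), the mean intensity values of the 10807 spots on an array were background-corrected with normexp (offset 50) and loess-normalized within the array, with the 544 control spots at weight 0. Control and outlier spots were left out (outliers were 0.370% to 8.02% of gene spots). Log2 ratios were turned to mutant over reference from the deposited dyes, and spots of a gene averaged. A gene needed to be well above background in 1 channel on 2 arrays. Of 6256 genes, 2 were removed and 135 lacked a value on some array, so 6119 were tested without imputation. Current R64 symbols were found for 5756 (92.0%).

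The 6 ratios of a gene were fitted with an intercept alone (lmFit, eBayes, a two-sided test against 0 with 5 residual and 3.37 prior degrees of freedom). P-values were adjusted over all genes by the Benjamini-Hochberg method. The alleles were fitted in 1 model (3 residual and 3.08 prior degrees of freedom). Folds are powers of 2 of mean log2 ratios, and the number of arrays limits the precision. Array numbers mark the dye orientation in the labels, and deviations from allele means correlated at 0.512, 0.467 and 0.930 between alleles, so a fit with the array number as a replicate block is given too. The consensus correlation within slides was 0.584. The fits were tested on simulated data with independent noise on each array. That simulation held no slide, dye or shared-reference effect, so it cannot show that the p-values hold where arrays share deviations.

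The members, the 56 gene lists and the tests were chosen with earlier results of these data known. Named genes are the 15 largest falls and rises with 1 sign on 6 arrays, the 10 smallest p in each direction among genes called pooled only, up to 5 members of each list by p, TRA1, LEU2, URA3, PHO5 and ADH2, and the 6 smallest F-test p. Lists got no test.

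Some labels conflict. A source of array 1 of tra1_S3463A names the tra1_SRR3413 strain, and a source on array 2 of tra1_SRR3413 and of tra1_S3463A names a dye other than the label field gives. Titles and label fields were followed. The pooled mean does not depend on which mutant array 1 of tra1_S3463A held, but the calls in single alleles, the F test among alleles and the set called in no single allele do. The alternatives were other signals, centring, filters, variance settings and blocks, and leaving out each array or allele. Sequence motifs were not used here.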

Additional observations from a re-analysis of the deposited data

Results flagged for a closer look

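Of the 166 genes named here, 2 had 1 array far from the other 5 by Dixon's criterion, a rule that chance meets in about 1 of 20 genes. CAR1, the arginase gene, rose by 0.54 ± 0.09 and stood at 0.72 on array 1 of tra1_P3408A, where the nearest other array was at 0.55. MET16, a gene of sulfate assimilation, fell to -0.58 ± 0.27 and stood at -0.0573 on array 2 of tra1_P3408A, where the nearest other array was at -0.53.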

How the results depend on the processing

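Over all alternatives run, between 1141 and 2003 genes were lower and between 1075 and 1975 higher, within 1.5 times of the counts given, lowest without tra1_S3463A and highest with the replicate block of the array number. The count called in no single allele moved to 270 with the replicate block and 880 with the slide as a random block, and ran from 938 to 2050 when an array or an allele was left out. An alternative chosen after seeing the data counted array 1 of tra1_S3463A with tra1_SRR3413, as its source label has it: 869 genes were then called in no single allele, the F test called 0 genes (41 at an unadjusted p under 0.05), and 979, 2004 and 326 genes passed in tra1_P3408A, tra1_SRR3413 and tra1_S3463A, the last with 1 array that was assumed to vary like the others. The replicate block changed no pooled call of the 166 named genes. Their calls in single alleles were not followed, so which named genes stayed in the set called in no single allele is not given. The F test among alleles called 0 genes in every setting, with 9 to 646 at an unadjusted p under 0.05. Of the 166 named genes none changed direction and 160 kept their side of the threshold in up to 22 settings. The other 6 lost the call somewhere: AQR1 in 7 settings, DSE3 in 3, GUA1 and LEU2 in 2 each, and AQY1 and GCY1 in 1 each, and the causes were not tested. The share of lower genes among those called was 50.8%, and 47.8% with median centring. With 6 arrays in 3 slides, slide and dye orientation cannot be told apart on slides 1 and 3. The smallest change called was 0.14 on the log2 scale, and a block for the array number takes deviations that arrays share, those of the reference included, out of the spread. The promoter motif comparison was not run.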

Other observations

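Genes near chromosome ends were lowered more often than others, a pattern noticed after the values were seen and given without a test. In gene order on the R64 chromosomes, 108 of 289 tested genes among the 10 nearest each end were lower (37.4%) and 50 higher (17.3%). The shares were 33.0% and 22.9% for genes 11 to 20 from an end (279 tested), 24.4% and 27.6% for genes 21 to 40 (579 tested), and 25.6% and 27.3% farther in (4466 tested). The excess was smaller with the slide as a random block, and no longer largest at the very end. In that fit 71 of the 289, 77 of the 279, 102 of the 579 and 854 of the 4466 genes were lower. The PAU family, seripauperin genes that lie mostly near chromosome ends, contributed to this with 19 of 24 members lower and none higher (median -0.27). Their array medians ran from -0.58 to 0.04, and the genes are so alike that 1 transcript could reach many of the probes. The count of falls was 5 with median centring, 4 with the slide as a random block and 2 to 12 when array 1 of any allele, tra1_SRR3413 or tra1_S3463A was left out. The COS family, also subtelomeric, went the other way in COS6 (0.73 ± 0.22), with 3 of 12 members higher and none lower.

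Other groups had members called in both directions, against 26.2% lower and 25.4% higher over all genes. Of 27 ergosterol genes 11 fell and 8 rose, with ERG11 (0.68 ± 0.10), the demethylase that azoles inhibit, ERG25 (0.60 ± 0.08) and ERG3 (0.95 ± 0.28) rising and ERG28 (-1.15 ± 0.32) falling. The count of rises was 5 with median centring and 4 without tra1_S3463A. Of 22 drug and acid exporters and related genes 5 fell and 6 rose (22.7% and 27.3%, near the background), with the polyamine transporters TPO2 (0.95 ± 0.23, saturated on 1 array) and TPO3 (0.76 ± 0.11) rising beside PDR12 and RTA1 falling (-1.45 ± 0.16). Of 26 nitrogen genes 11 fell (6 with the slide as a random block, 7 without tra1_P3408A or tra1_SRR3413) and 7 rose, with the glutamate dehydrogenase GDH2 lowered evenly (between -1.09 and -0.88 on the 6 arrays, 2.01-fold). Of 21 hexose transport genes 5 rose and 3 fell (23.8% and 14.3%, both below the background). The rises included HXT4 (1.20 ± 0.49) and HXT1 (0.91 ± 0.31), whose family members are alike in sequence. The glycolysis group had 7 of 24 lower and 3 higher, a lower count that ran from 4 to 17 over the alternatives. Among its members GCR1, the activator of glycolytic genes, fell (-1.18 ± 0.11) and HXK2, the main hexokinase in glucose, rose (0.72 ± 0.14).

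The remaining groups are given by their counts. Arginine genes had 3 lower and 4 higher of 12, pyrimidine genes 4 and 3 of 11, sulfur genes 5 and 4 of 23, ER chaperones 8 and 4 of 20, galactose genes 4 and 1 of 10, pentose phosphate genes 5 and 3 of 10, and mitochondrial carriers 7 and 7 of 22. Transfer RNA synthetases had 6 and 2 of 21, RNA polymerase II and its general factors 2 and 5 of 19, Mediator 4 and 7 of 25, and TFIID factors 0 and 2 of 9. Cell wall integrity genes had 2 and 6 of 16, mating genes 4 and 5 of 23, aquaporins 2 and 0 of 5, and the 4 plasmid and marker genes 2 and 0. Several of these small counts moved by over 1.5 times over the alternatives. Lower transfer RNA synthetases ran from 1 with the slide as a random block to 9 with the array number as a block. Higher galactose genes ran from 0 to 5, higher TFIID factors from 0 to 5, higher RNA polymerase II genes from 2 to 6, lower ER chaperones from 5 to 9, lower sulfur genes from 2 to 7, higher mating genes from 3 to 8, and higher hexose transport genes from 4 to 9.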
